A study of Mus musculus with 6 samples.

Results

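Expression of 10 genes of the Nodal pathway, covering ligands, co-receptors, a receptor, antagonists and a transcription factor, was examined in embryoid bodies (EBs) made from WT and Tnfaip2-/- mouse ES cells. The 10 genes were chosen by name as parts of the pathway, with earlier results of these data known. Each corresponds to 1 of the 52636 genes in the count table. EBs are aggregates of ES cells in which differentiation can be induced. The WT EBs came from the parental line E14, and the Tnfaip2-/- EBs from a single E14 clone with a frameshift and an early stop codon in Tnfaip2, made with CRISPR-Cas9. Cells of both genotypes were grown in ES cell medium with leukemia inhibitory factor (LIF), which maintains pluripotency, and were kept in ES cell medium for 3 days in hanging drops, with 30 µl and 300 cells per drop according to the sample descriptions, and EBs were then plated on gelatin and differentiated for 3 days before harvest, in a medium for which no LIF is listed. The study's methods give another drop volume and cell number. RNA was sequenced from 3 samples per genotype, with 21765931 to 23804489 counts per sample. Because each genotype is a single line, p-values measure the spread between samples of that line, and the genotype cannot be told apart from other properties of the clone.

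Nodal is a secreted ligand of the TGF-β family that patterns the early embryo. It signals through the type I receptor ACVR1B and a type II receptor, with the help of EGF-CFC co-receptors, and the activated SMAD2 and SMAD3 then act in the nucleus with SMAD4 and partners such as FOXH1. The pathway induces its own ligand and its own antagonists, the Lefty proteins, and in the epiblast it is required for the primitive streak, from which mesoderm and endoderm arise.

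Tnfaip2, the edited gene, had 7, 4, and 7 counts in WT and 0, 2, and 2 counts in Tnfaip2-/- EBs. These counts were low in every sample, and all WT samples lay above all Tnfaip2-/- samples. Expression is given in CPM, which are counts divided by the TMM-scaled library size, and a log2 fold change is the difference of Tnfaip2-/- from WT EBs.

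Of the 10 genes, 8 passed the filter on low counts and edgeR's quasi-likelihood test called all 8 (adjusted p under 0.05), against 67.7% of all 17849 tested genes. Of these 8 genes, 3 were higher in Tnfaip2-/- EBs (34.0% of all tested genes were) and 5 were lower (33.7% of all tested genes were). The genotypes did not overlap in any of the 8, as in 69.4% of all tested genes. When edgeR tested for changes beyond 1.5-fold, 0 of the 8 passed, against 15.7% of all tested genes. For changes of any size, all 8 had an unadjusted edgeR p under 0.05, and DESeq2 called all 8 as well. The median absolute log2 fold change was 0.48 over the 8 genes and 0.30 over all tested genes. Differences in the 8 genes were thus small and yet larger than the spread between samples. That spread was narrow, with a biological coefficient of variation of 0.0215, so that small differences in well-expressed genes can be called. The 8 genes lay at percentiles 66.2 to 97.5 of the WT level per length, whereas all tested genes include many with lower levels. Since RNA was taken from whole EBs, fewer cells that express a gene and less RNA per cell cannot be told apart.

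**Figure D1:**
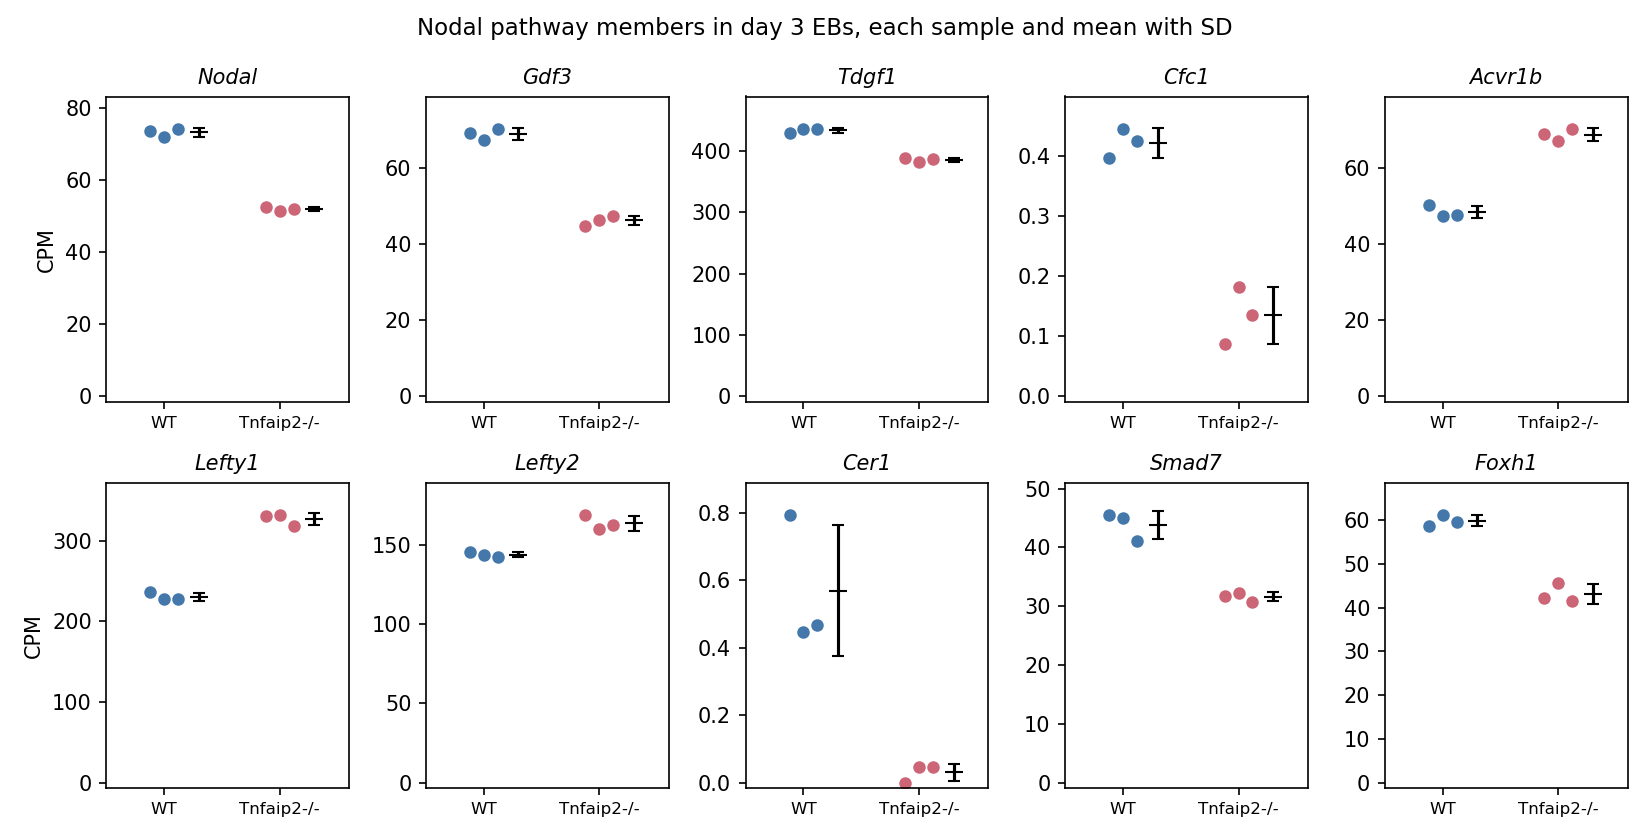
CPM of each of the 10 genes in the 3 WT (blue) and 3 Tnfaip2-/- (red) samples, with the mean and SD in black; each panel has its own axis from 0. The genotypes do not overlap in any panel, with Acvr1b, Lefty1 and Lefty2 higher and the other 7 lower in Tnfaip2-/- EBs.

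Both ligands were lower in Tnfaip2-/- EBs. Nodal (ENSMUSG00000037171, forward strand of chromosome 10, 61417972 to 61425338 in GRCm38) had 73.6, 72.0, and 74.3 CPM in the WT EBs and 52.6, 51.5, and 52.0 CPM in the Tnfaip2-/- EBs. All WT samples lay well above all Tnfaip2-/- samples, and the samples of a genotype were close to each other. Mean expression was 73.3 ± 1.18 CPM in WT and 52.0 ± 0.523 CPM in Tnfaip2-/- EBs (SD, n = 3), so that 71.0% of the WT level was left. This is a log2 difference of -0.49 with an SE of 0.0376 (edgeR adjusted p = 5.72e-16). Gdf3, which encodes a related ligand that can signal through the same receptors and can act together with Nodal, had 69.4, 67.5, and 70.5 CPM in the WT EBs and 45.0, 46.4, and 47.5 CPM in the Tnfaip2-/- EBs. Again the genotypes were fully separated, with the Tnfaip2-/- samples low. Gdf3 (ENSMUSG00000030117, reverse strand of chromosome 6, 122605403 to 122610087) thus changed by -0.58 on the log2 scale, with an SE of 0.0395 (edgeR adjusted p = 1.37e-17), the largest decrease among the 8 tested genes.

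The sequence before the start site of a gene is where promoter elements lie, and the 250 bases before the RefSeq start site (GRCm38.p6) are shown for 3 of the 5 genes that matched a RefSeq promoter entry by symbol (Nodal, Tdgf1, Cfc1, Acvr1b and Cer1), namely the ligand, a co-receptor and the receptor, of which the first 2 were lower and the last was higher in Tnfaip2-/- EBs. Gdf3, Lefty1, Lefty2, Smad7 and Foxh1 had no entry. Capitals mark the SMAD box CAGAC on either strand. The Nodal stretch is chr10:61417722-61417971 on the forward strand, the Tdgf1 stretch chr9:110946159-110946408 on the reverse strand, and the Acvr1b stretch chr15:101173822-101174071 on the forward strand.
Nodal: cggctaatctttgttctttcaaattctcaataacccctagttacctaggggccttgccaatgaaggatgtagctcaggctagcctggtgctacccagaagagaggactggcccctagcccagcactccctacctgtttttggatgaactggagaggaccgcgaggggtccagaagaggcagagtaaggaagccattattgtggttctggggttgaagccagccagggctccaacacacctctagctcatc
Tdgf1: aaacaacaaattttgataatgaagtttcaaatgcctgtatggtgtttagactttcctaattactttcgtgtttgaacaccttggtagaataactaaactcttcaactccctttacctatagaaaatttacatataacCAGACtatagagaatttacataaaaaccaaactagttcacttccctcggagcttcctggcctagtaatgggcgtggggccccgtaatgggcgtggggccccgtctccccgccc
Acvr1b: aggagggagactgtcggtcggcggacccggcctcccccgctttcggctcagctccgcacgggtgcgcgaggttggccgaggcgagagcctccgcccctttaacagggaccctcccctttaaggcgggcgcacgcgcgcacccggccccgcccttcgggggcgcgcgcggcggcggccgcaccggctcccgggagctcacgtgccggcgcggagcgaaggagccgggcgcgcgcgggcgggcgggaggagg
The SMAD box was found once each in the stretches of Tdgf1, Cfc1 and Cer1 and in 42.2% of the 32851 promoter stretches of this length. The FOXH1 motif AATCCACA (0.718% of all stretches), the paired SMAD box GTCTAGAC (0.167%), the octamer ATGCAAAT (526 of the 32851) and the TATA box TATAAA (12.4%) were searched on both strands and were not found in any of the 5 stretches. A match of letters is a description and no evidence of binding. The stretches differed in base composition, with 53.2% G and C in Nodal, 42.0% in Tdgf1 and 78.8% in Acvr1b.

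Among the co-receptors and the receptor the directions differed. Tdgf1, which encodes the EGF-CFC co-receptor Cripto, had 429, 435, and 437 CPM in the WT EBs and 388, 383, and 386 CPM in the Tnfaip2-/- EBs. The WT samples were all higher, although the gap was small beside the level. Tdgf1 (ENSMUSG00000032494, reverse strand of chromosome 9, 110939603 to 110946158) thus changed by -0.17 on the log2 scale, with an SE of 0.0241 (edgeR adjusted p = 3.42e-08), the smallest among the 8 tested genes. Of the 51-base windows in its transcripts, 51 bases being the read length, 8.74% also occur in the pseudogene Tdgf1-ps1, and reads from these windows cannot be assigned to either gene.

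Cfc1 encodes Cryptic, the other EGF-CFC co-receptor, and was close to absent, with 9, 10, and 10 counts in WT and 2, 4, and 3 counts in Tnfaip2-/- EBs. The WT samples were all higher, and none of the 6 samples exceeded 10 counts. Cfc1 (ENSMUSG00000026124, forward strand of chromosome 1) did not pass the filter. Its summed counts were 3.14-fold higher in WT EBs, with a 95% interval from 1.45 to 7.54 for counting error only. In a fit without the filter the log2 fold change was -1.63 (edgeR adjusted p = 0.00499). DESeq2 without a filter gave -1.66 and an adjusted p of 0.0623, above the threshold and the highest of 9 alternatives, over which the log2 fold change lay between -1.89 and -1.40. Exons of Prss40 on the opposite strand cover 27.8% of the exon bases of Cfc1, and a kit that keeps no strand information cannot separate reads of the 2 genes there. Prss40 itself had between 0 and 1 counts in every sample.

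Acvr1b, which encodes the type I receptor ALK4, had 50.2, 47.2, and 47.5 CPM in the WT EBs and 68.8, 66.9, and 70.2 CPM in the Tnfaip2-/- EBs. Here the Tnfaip2-/- samples were the high ones, without overlap. Acvr1b (ENSMUSG00000000532, forward strand of chromosome 15, 101174067 to 101213684) thus changed by 0.51 on the log2 scale, with an SE of 0.0395 (edgeR adjusted p = 1.31e-15), similar in size to that of Nodal with the opposite sign.

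The antagonists did not move together either. Lefty1, a secreted inhibitor that binds Nodal and its co-receptors, had 236, 227, and 227 CPM in the WT EBs and 330.0, 332, and 318 CPM in the Tnfaip2-/- EBs. Every Tnfaip2-/- sample was higher than every WT sample. Lefty1 (ENSMUSG00000038793, forward strand of chromosome 1, 180935022 to 180938400) thus changed by 0.50 on the log2 scale, with an SE of 0.0265 (edgeR adjusted p = 1.1e-21). Lefty2, its neighbour on the same strand at 180893108 to 180899103, had 146, 144, and 142 CPM in the WT EBs and 169, 160.0, and 163 CPM in the Tnfaip2-/- EBs. The genotypes were separated here as well, by a smaller distance. Lefty2 (ENSMUSG00000066652) thus changed by 0.19 on the log2 scale, with an SE of 0.0292 (edgeR adjusted p = 2.52e-07).

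Because Lefty1 and Lefty2 are close copies of each other, the bases that tell them apart decide which reads can be counted. Their coding sequences (GENCODE transcripts), of 1104 bases each, were identical at 91.8% of positions, with a longest identical run of 140 bases. Over all transcripts, 17.5% of the 51-base windows of Lefty1 occur in Lefty2, and 11.7% of those of Lefty2 occur in Lefty1. Reads that map uniquely cannot come from these windows, which lowers the level counted for both genes.

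Smad7, an intracellular inhibitor of TGF-β family receptors that is induced by their signals, was lower in Tnfaip2-/- EBs. It had 45.5, 44.9, and 41.2 CPM in the WT EBs and 31.7, 32.3, and 30.8 CPM in the Tnfaip2-/- EBs. The lowest WT sample was above the highest Tnfaip2-/- sample. Smad7 (ENSMUSG00000025880, chromosome 18) thus changed by -0.47 on the log2 scale, with an SE of 0.0478 (edgeR adjusted p = 4.55e-12).

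Cer1, a secreted antagonist of Nodal made by the anterior visceral endoderm, had 18, 10, and 11 counts in WT and 0, 1, and 1 counts in Tnfaip2-/- EBs. It was at or near 0 in every Tnfaip2-/- sample and low in the WT samples, of which replicate 1 was the highest. Cer1 (ENSMUSG00000038192, reverse strand of chromosome 4) did not pass the filter. The summed counts were 39 in WT and 2 in Tnfaip2-/- EBs, a ratio of 19.0 with a 95% counting interval from 4.92 to 162. In a fit without the filter the log2 fold change was -4.03 (edgeR adjusted p = 4.71e-07).

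Foxh1, the transcription factor that brings activated SMAD complexes to many targets of the pathway, had 58.7, 61.3, and 59.7 CPM in the WT EBs and 42.3, 45.7, and 41.5 CPM in the Tnfaip2-/- EBs. All Tnfaip2-/- samples were low. Foxh1 (ENSMUSG00000033837, reverse strand of chromosome 15, 76668225 to 76669948) thus changed by -0.47 on the log2 scale, with an SE of 0.0422 (edgeR adjusted p = 1.08e-13).

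**Figure D2:**
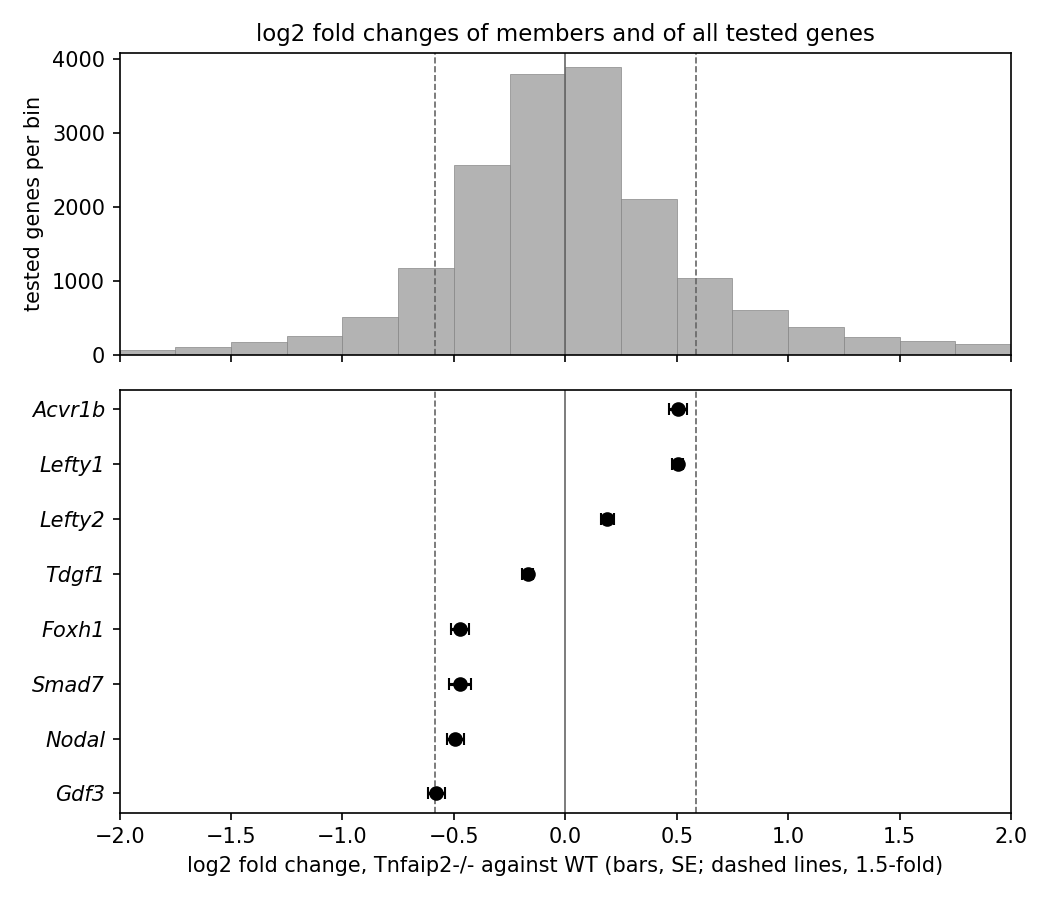
Upper panel, number of tested genes per log2 fold change bin of width 0.25; lower panel, log2 fold change of the 8 tested members with its standard error; dashed lines mark a fold change of 1.5. The axis ends at 2 on either side and leaves out 598 genes; the members lie between -0.58 and 0.51, none beyond the dashed lines.

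Ratios of counts within a sample do not depend on scaling between samples. The ratio of Lefty1 plus Lefty2 to Nodal was 5.20, 5.15, and 4.97 in WT and 9.49, 9.54, and 9.24 in Tnfaip2-/- EBs. It was higher in every Tnfaip2-/- sample, 1.85-fold on average, with an exact two-sided permutation p of 0.1, the smallest that 3 against 3 samples can give. The ratio of Tdgf1 to Nodal rose from 5.92 ± 0.112 to 7.41 ± 0.0236 (SD, n = 3), a log2 difference of 0.33, again without overlap and with an exact permutation p of 0.1. Another 2 ratios were chosen after their values were seen. Lefty1 to Lefty2 was 1.62, 1.58, and 1.59 in WT and 1.95, 2.07, and 1.95 in Tnfaip2-/- EBs. Gdf3 to Nodal was 0.943 ± 0.00556 and 0.890 ± 0.0309 (SD, n = 3). Samples did not overlap in either ratio, and the exact permutation p was 0.1 for each. With 3 against 3 samples, none of the 4 ratios can pass 0.05 in this permutation test, whatever their size.

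**Figure D3:**
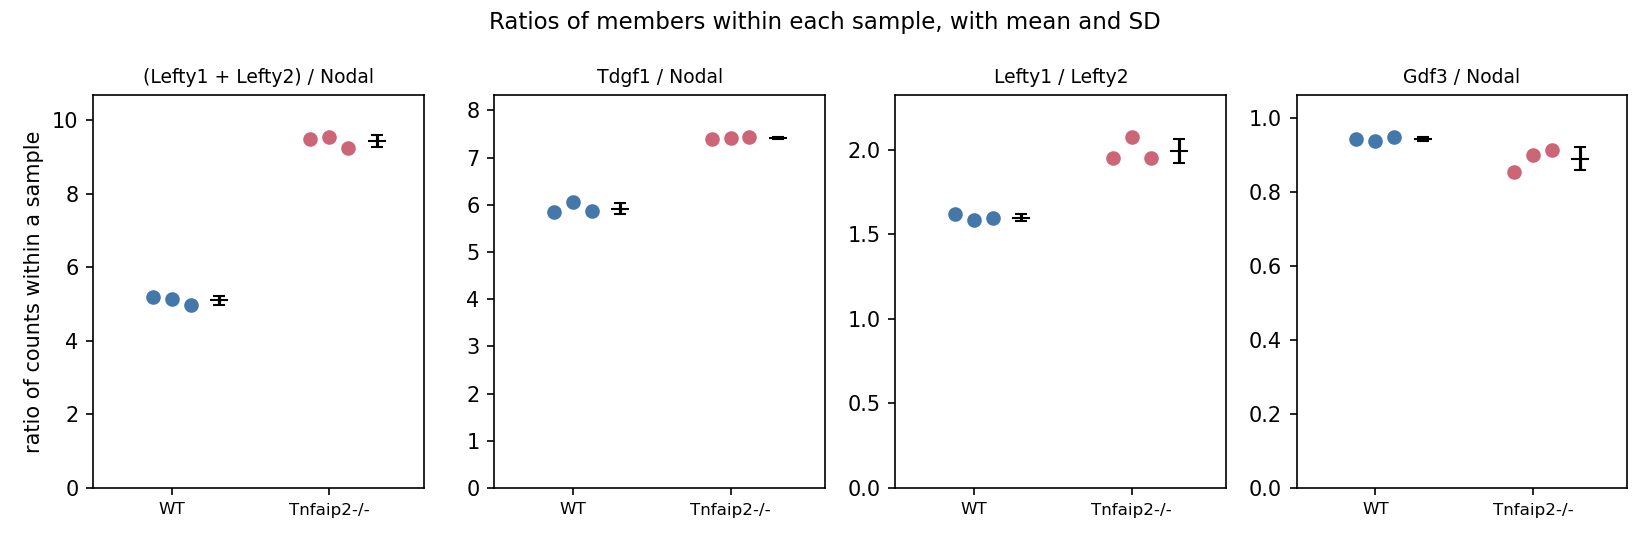
Ratios of counts within each sample for 4 pairs of genes, with 3 WT (blue) and 3 Tnfaip2-/- (red) samples and the mean and SD in black; axes start at 0. The ratio of Lefty1 plus Lefty2 to Nodal is close to 5.11 in WT and 9.42 in Tnfaip2-/- EBs.

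Levels of different genes are compared in CPM per kilobase of exon. In WT EBs, Tdgf1 had the highest level (165), followed by Lefty1 (131), Lefty2 (55.1), Foxh1 (43.9), Nodal (35.0), Gdf3 (28.5), Acvr1b (10.9) and Smad7 (9.70), in an order in which no neighbours overlapped. Cfc1 (0.406) and Cer1 (0.327) came last and overlapped each other. In Tnfaip2-/- EBs, Lefty1 (186) stood above Tdgf1 (147), whereas the order of the others was the same as in WT EBs. Thus the antagonist Lefty1 and the co-receptor Tdgf1 exchanged places between the genotypes in the level per length. In CPM without division by length, Tdgf1 was above Lefty1 in both genotypes (434 and 230 in WT, 386 and 326 in Tnfaip2-/- EBs). Counting only windows that occur in no other gene in place of exon bases, a choice made after the data were seen, gave the same exchange, with 178 for Tdgf1 and 164 for Lefty1 in WT and 159 and 232 in Tnfaip2-/- EBs, in CPM per kilobase of such windows. Among all tested genes, Tdgf1 was at the percentile 97.5 of the level per length in WT EBs, Nodal at 87.9 and Smad7 at 66.2.

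**Figure D4:**
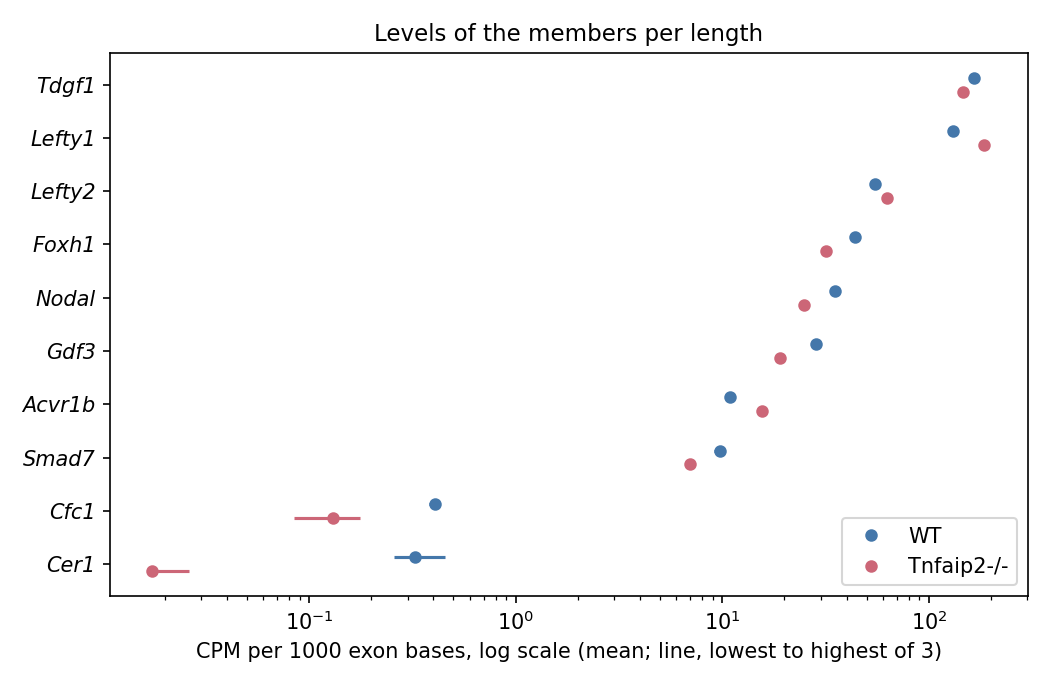
Level of each of the 10 genes in CPM per kilobase of exon on a log scale, in WT (blue) and Tnfaip2-/- (red) EBs; points are means and lines reach from the lowest to the highest of 3 samples (the lowest Cer1 value in Tnfaip2-/- EBs is 0 and lies off the scale). Lefty1 and Tdgf1 exchange places, and Cfc1 and Cer1 lie far below the other 8 genes.

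The genes whose pattern over the 6 samples was most like that of Nodal, by the smallest root mean square difference of centred log2 CPM, were Wipi2 (0.0107), Ywhaq (0.0123) and Tpm4 (0.0129). Their log2 fold changes were -0.48, -0.47 and -0.51, and none of the 3 belongs to the pathway lists.

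A further 50 genes of the pathway were listed by role, likewise with earlier results of these data known. Among them, 45 were tested and 38 (84.4%) were called, against 67.7% of all tested genes. Of these, 14 were higher and 24 lower in Tnfaip2-/- EBs, against 34.0% and 33.7% of all tested genes. The median log2 fold change was -0.20 over the 45 genes and 0.003 over all tested genes. Changes beyond 1.5-fold were called in 15 of the 45, against 2798 of all 17849 tested genes (15.7%). They were unevenly spread, with 9 among the 14 target genes of the streak and endoderm. The other lists held 4 of 14 antagonists and negative regulators, 1 of 5 ligand subunits, 1 of 7 receptors and convertases, and 0 of 5 SMADs and adaptors.

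Among 9 other ligand subunits that act through SMAD2 and SMAD3, 5 were tested, 1 was higher and 3 were lower (34.0% and 33.7% of all tested genes). Tgfb1 had 53, 64, and 77 counts in WT and 198, 214, and 211 counts in Tnfaip2-/- EBs, and its log2 fold change was 1.72. Gdf11 was lower, with a log2 fold change of -0.64 (edgeR adjusted p = 2.43e-06; for Tgfb1, 8.21e-18). The calls of 2 others, named after their values were seen, rested on single samples and were not made by DESeq2. The log2 fold change of Inhbb (-0.49) was not called without Tnfaip2-/- replicate 2 (-0.30, edgeR adjusted p = 0.114). The log2 fold change of Tgfb2 (-0.82) was not called without WT replicate 1 (-0.65, edgeR adjusted p = 0.0925), WT replicate 3 (-0.75, 0.0558) or Tnfaip2-/- replicate 1 (-0.51, 0.147). The activin subunit gene Inhba had at most 2 counts in any sample, and Mstn had 0. Gdf1 had 0 counts in all samples under its GENCODE identifier, and its exons overlap those of Cers1, which had 206, 237, and 254 counts in WT and 118, 101, and 91 counts in Tnfaip2-/- EBs. Reads of Gdf1 and Cers1 cannot be separated, so that the 0 counts do not measure the expression of Gdf1.

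Of 8 other receptors and convertases, 7 were tested, 4 were higher and 2 lower (34.0% and 33.7% of all tested genes). Of the 2 lower, the log2 fold change of Tgfbr1 (-0.09, edgeR adjusted p = 0.0469), named after its values were seen, was close to the threshold. It was not called without WT replicate 1 (edgeR adjusted p = 0.104), WT replicate 3 (0.0718), Tnfaip2-/- replicate 2 (0.112) or Tnfaip2-/- replicate 3 (0.1). The call was also lost with DESeq2 (0.14), upper quartile factors (0.148), a filter at 1 CPM (0.0584) or a replicate block (0.0669). The largest change was in Tgfbr2, the type II receptor for TGF-β ligands, which was at 1.11 ± 0.123 CPM in WT and 2.95 ± 0.288 CPM in Tnfaip2-/- EBs (SD, n = 3), a difference of 1.41 in log2. The activin type II receptors, which also serve Nodal, moved in opposite directions, with log2 fold changes of 0.38 for Acvr2a and -0.45 for Acvr2b. Pcsk6, a convertase that cleaves the Nodal precursor, was higher with a log2 fold change of 0.37. Acvr1c, which encodes ALK7, had between 0 and 3 counts per sample.

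The 5 SMADs and adaptors were all called, 3 higher and 2 lower, where 67.7% of all tested genes were called, 34.0% higher and 33.7% lower. Smad3 rose from 31.3 ± 1.32 to 45.7 ± 1.78 CPM and Smad2 from 43.9 ± 1.64 to 56.5 ± 1.21 CPM (SD, n = 3), with log2 fold changes of 0.54 and 0.36. Both are the effectors that Nodal receptors phosphorylate. Zfyve9, which presents them to receptors, had a log2 fold change of 0.24, and Trim33 one of -0.16.

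Of 14 other antagonists and negative regulators, all tested, 4 were higher and 7 lower, so that 78.6% were called, where 67.7% of all tested genes were. The calls of Bambi and Pmepa1, named after their values were seen, changed with single samples or other settings. The log2 fold change of Bambi (0.16) was not called without WT replicate 2 (edgeR adjusted p = 0.231), WT replicate 3 (0.0732), Tnfaip2-/- replicate 2 (0.239) or Tnfaip2-/- replicate 3 (0.072), or by DESeq2 (0.194) or without a filter on low counts (0.0849). The log2 fold change of Pmepa1 (-0.21) was not called without WT replicate 2 (-0.14, edgeR adjusted p = 0.063). Fst, which encodes the activin-binding protein follistatin, was at 33.0 ± 1.22 CPM in WT and 4.63 ± 0.189 CPM in Tnfaip2-/- EBs (SD, n = 3), and its log2 fold change was -2.83 (edgeR adjusted p = 2.57e-33). Its relative Fstl3 was higher by 2.05 on the log2 scale, at 15, 13, and 3 counts in WT and 36, 41, and 49 counts in Tnfaip2-/- EBs. The genes of the corepressors TGIF2 and TGIF1 had log2 fold changes of -0.80 and -0.70.

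Of 14 target genes of the streak and endoderm, all tested, 2 were higher and 10 lower (34.0% and 33.7% of all tested genes), with a median log2 fold change of -1.81. The largest changes were in T (-7.95), Fgf8 (-4.69), Evx1 (-4.44) and Lhx1 (-4.21), genes of the primitive streak and its derivatives. T had 774, 732, and 866 counts in WT and 5, 3, and 1 counts in Tnfaip2-/- EBs, and Lhx1 had a mean of 3 counts in Tnfaip2-/- EBs. Fitted values this close to 0 depend on the prior count. Against this, Hhex (0.74) and Sox17 (0.45) were higher, and Otx2 (-0.01, or 0.02 with upper quartile factors, which moved the median of all genes from 0.003 to 0.03) and Cxcr4 (-0.18) did not pass the test; these 4 genes were named after their values were seen. The log2 fold change of Sox17 was no longer called without WT replicate 3 (0.25, edgeR adjusted p = 0.18) or without Tnfaip2-/- replicate 3 (0.32, adjusted p = 0.111), and DESeq2 did not call it (0.43, adjusted p = 0.117). Several genes of this list changed far more than any of the 8 tested members, whose absolute log2 fold changes were at most 0.58. Whether the listed genes depend on Nodal signals in these EBs was not tested.

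**Figure D5:**
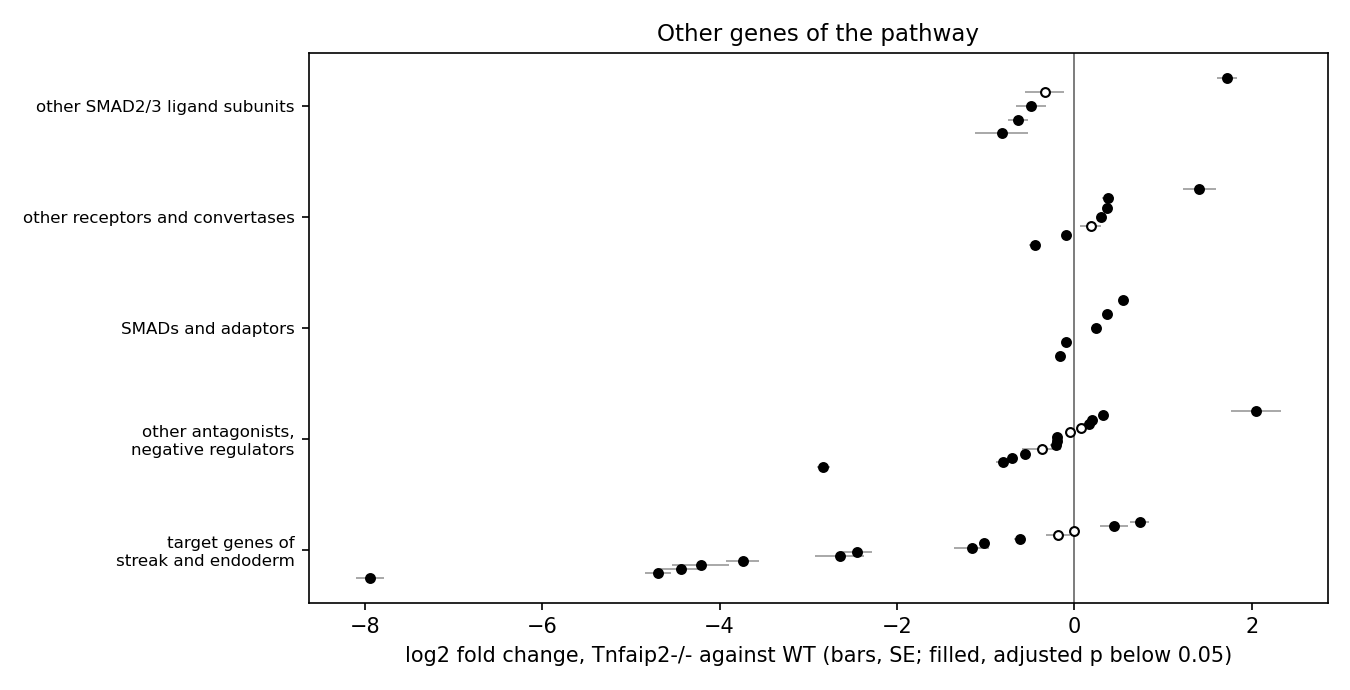
Log2 fold change of the 45 tested pathway genes by list, with standard errors as bars; filled points were called and open points were not. The target genes reach from -7.95 to 0.74, and the SMADs and adaptors from -0.16 to 0.54.

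Markers of the cell states that could express the pathway were summed in CPM, and their calls are to be read against the 67.7% of all tested genes that were called, 34.0% higher and 33.7% lower. Naive pluripotency markers were at 754, 750.4, and 739 in WT and 1025, 1042, and 1054 in Tnfaip2-/- EBs, with Zfp42 the most abundant (8 of 8 called, 5 higher and 3 lower). Markers of formative and primed epiblast, a state in which Nodal is active, were at 952, 953, and 945 in WT and 477, 469, and 469 in Tnfaip2-/- EBs, with Dnmt3b the most abundant in WT (598, and 173 in Tnfaip2-/- EBs) and Otx2 in Tnfaip2-/- EBs (223), and 5 of 6 called, all lower. The sum of the formative markers was thus lower and that of the naive markers higher in every Tnfaip2-/- sample, although single genes differed. Klf4 (log2 fold change -1.49), Tbx3 (-1.45) and Esrrb (-0.48), named after their values were seen, were the 3 naive markers called lower, and Otx2 was the formative marker that was not called. Primitive streak markers fell from 99.0, 101, and 98.7 to 21.9, 19.0, and 23.0, with T the most abundant in WT (34.5) and Eomes in Tnfaip2-/- EBs (18.4), 8 of 8 called lower, and T and Lhx1 near 0 in Tnfaip2-/- EBs. The general pluripotency markers Pou5f1, Sox2 and Nanog summed to 1297 ± 10.2 in WT and 1057 ± 6.14 in Tnfaip2-/- EBs (SD, n = 3), with Pou5f1 the most abundant, 2 higher and 1 lower. Both these lists and the members differed between the genotypes, and neither went in a single direction. The part of these lists in the results was not tested.

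Anterior visceral endoderm markers were at 475, 461, and 465.5 in WT and 570, 571, and 557 in Tnfaip2-/- EBs, of which Lefty1, itself among the 10 genes, was the most abundant and, at 230.2 in WT and 326 in Tnfaip2-/- EBs, made up nearly all of the rise. Most of the remaining sum came from Otx2, which is also on the formative list, at 224 in WT and 223 in Tnfaip2-/- EBs. The sum thus mainly follows these 2 genes. Of the 7 markers, 6 were tested, 3 were higher and 2 lower. Cer1 and Lhx1 were near 0 in Tnfaip2-/- EBs, and Dkk1 was lower (log2 fold change -1.26). Besides Lefty1, Hesx1 (2.65) and Hhex (0.74) were higher. Dkk1, Hesx1 and Hhex were named after their values were seen. Primitive and visceral endoderm markers summed to 140 ± 2.32 and 123 ± 1.14 (12 tested, 2 higher and 7 lower, Cubn the most abundant, Afp near 0 in Tnfaip2-/- EBs). Among the 7 lower, the log2 fold change of Cubn (-0.09, edgeR adjusted p = 0.0458) was not called without WT replicate 1 (0.094), WT replicate 2 (0.125), Tnfaip2-/- replicate 2 (0.0791) or Tnfaip2-/- replicate 3 (0.094). Cubn also lost its call with DESeq2 (0.137), upper quartile factors (0.15), a filter at 1 CPM (0.0597) or a replicate block (0.0673). Trophoblast markers summed to 25.1 ± 1.20 and 176 ± 1.76, with 3 tested, 2 higher and 1 lower, and with most of the sum from Tfap2c (21.6 and 171), a gene that early germ cells and other cells also express, while Cdx2 was near 0 in Tnfaip2-/- EBs and Elf5 in both genotypes. Neural markers summed to 104 ± 3.98 and 45.7 ± 0.912 (4 of 4 lower, Sox1 the most abundant, Zic1 near 0 in Tnfaip2-/- EBs). Fibroblast markers were low in both genotypes, at 8.83 ± 0.857 and 6.36 ± 0.592 (4 tested, 2 lower, Thy1 the most abundant; all sums SD, n = 3). Col3a1 was at or near 0 in Tnfaip2-/- EBs, and Postn and Twist2 were at or near 0 in both genotypes. The part of these cell types in the results was not tested.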

How the data were processed

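The deposited counts were made by the authors, who mapped 51-base single-end reads to GRCm38 with TopHat2 2.1.0 and counted unique reads per gene with featureCounts 1.5.0 (versions from the submitters' processing notes). The strand setting is not given in the sources used here. All 6 samples, grouped by genotype as labelled, were tested with edgeR 4.0.16 in R 4.3.3: the default expression filter (minimum count 10, minimum total 15), TMM normalization (factors 0.987 to 1.01), the robust quasi-likelihood F test over 17849 genes, and Benjamini-Hochberg adjustment at 0.05. SEs were derived from the log2 fold change and its F value and are approximate. The biological coefficient of variation was 0.0215. Within genotypes, the chi-square per gene between sample pairs was 1.40 to 2.09, where counting noise alone gives 1. A floor of 3 counts equals 0.126 to 0.138 CPM. Counting intervals are exact binomial. The tests were checked on simulated data.

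Members and lists were chosen with earlier results of these data known. Named genes were all members, Tnfaip2, up to 4 genes per pathway list with the largest change among called genes without overlap, marker sums with their most abundant and absent genes, and the 3 genes most like Nodal. Inhba, Mstn, Gdf1, Cers1, Acvr1c, Prss40, Inhbb and Tgfb2 were named after their values were seen. Positions and lengths are from GENCODE M21, and the Lefty coding sequences were aligned with Biopython 1.88. Alternatives were RLE and upper quartile factors, no filter or a stricter one, DESeq2 1.42.0, the legacy fit, a test for changes beyond 1.5-fold, a fixed coefficient of variation, a replicate block, and leaving out each sample.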

Additional observations from a re-analysis of the deposited data

How the results depend on the processing

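The log2 fold changes of the 8 tested members kept their direction in all 120 alternative values and their call in 104. The 16 others came from the test against a fold change of 1.5 and from a coefficient of variation set at 0.2 for every gene. In these 2 settings, the members called higher fell from 3 to 0 and 0, those called lower from 5 to 0 and 0, the pathway genes called from 38 to 15 and 16 (14 higher to 3 and 4, 24 lower to 12 and 12), and the genes called in the whole table from 12084 to 2798 and 3520. Both ask for larger changes by construction, and the spread between independent clones was not measured. Without 1 sample, 11537 to 11743 genes were called, and the tested members kept their call in 48 of 48 values. DESeq2 called 10261 genes and no filter gave 12676. Nodal ranged from -0.51 to -0.47, Lefty1 from 0.48 to 0.53 and Tdgf1 from -0.19 to -0.14 on the log2 scale. Among the low members, Cer1 stayed called without a filter in each of 9 further settings (highest adjusted p = 0.000932), while Cfc1 did not with DESeq2; these settings, those of the other named genes and of the ratios of Lefty1 to Lefty2 and Gdf3 to Nodal were chosen after the data were seen. Of 762 values for 51 other called genes, 85 lost their call, 32 of them outside the 2 settings named, and 0 reversed. Otx2, not called, changed from -0.01 to 0.0174 with upper quartile factors (edgeR adjusted p = 0.568), which moved the median of all genes from 0.003 to 0.0288. The log2 ratio of Lefty1 plus Lefty2 to Nodal, 0.88, lay between 0.87 and 0.90 without 1 sample, and that of Tdgf1 to Nodal, 0.33, between 0.32 and 0.34. Samples with the same replicate number did not deviate together (correlations -0.02, -0.03 and -0.03), so that the numbers do not pair them; with the replicate block 11845 genes were called, with 3 members higher and 5 lower, and 37 pathway genes, and the ratios were 0.88 and 0.33. Among the members, depth limits Cfc1 and Cer1.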

Other observations

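Tested genes within 100 kb of the members were counted after the data were seen, and their calls are to be read against the 34.0% of all tested genes that were higher and the 33.7% that were lower. Beside Nodal, which was lower in Tnfaip2-/- EBs, 3 of 4 neighbours were lower, 0 higher and 1 was not called by edgeR. These 3 were Eif4ebp2 (3153 bp away), Pald1 and Lrrc20, with log2 fold changes of -0.74, -0.63 and -0.52. The median over the 851 tested genes of chromosome 10 was -0.18, and 66.7% of them had a log2 fold change below 0. On the other chromosomes with members, the median was between -0.01 and 0.09. Whether the level of Nodal moves with its region was not tested.

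Other members gave different counts, of which several were near the 34.0% higher and 33.7% lower of all tested genes. Beside Acvr1b, which was higher, 5 of 6 neighbours were higher and 0 lower. Beside Foxh1, which was lower, 5 of 13 neighbours were lower, 1 was higher and 7 were not called, among them Kifc2, 29 bp away (-0.03). Beside Gdf3, which was lower, 3 of 6 were higher and 1 was lower, and Dppa3, 16323 bp away, had a log2 fold change of 2.67. Beside Tdgf1, which was lower, 3 of 6 were also higher and 1 was lower. Beside Smad7, which was lower, 1 of 3 was higher and 0 lower. Cfc1 and Cer1, both lower, had 2 of 3 and 1 of 2 neighbours lower and 0 higher. Each Lefty gene is a neighbour of the other. Beside Lefty1, 2 of 6 were higher and 1 was lower, and beside Lefty2, 2 of 8 were higher and 2 were lower.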
